A study of Rattus norvegicus with 24 samples.

Results

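The comparison asked how kidneys of rats given conditioned medium differed from kidneys of rats given the living cells. It used 18 of the 24 animals of the series, namely the 6 animals labelled CoCM and the 12 labelled ipABCB5 or ivABCB5 (6 each), and the average of the cell groups gave equal weight to each route. All animals were male PKD/Mhm (Cy/+) rats aged 8 months, and RNA was sequenced from the whole left kidney. This line carries a missense change in Anks6, which encodes a protein of the primary cilium, and is a model of polycystic kidney disease.

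In the CoCM group, animals received the supernatant of human ABCB5+ cells kept in co-culture with macrophages derived from the human THP-1 line and activated by IFN-γ and LPS. The study names the intravenous (i.v.) route for the medium in 1 place and the intraperitoneal (i.p.) route in another, and the labels give none, so the route of the medium is not settled here. In the 2 cell groups, 2000000 ABCB5+ cells were injected per dose, i.p. (i.p. ABCB5+) or i.v. (i.v. ABCB5+). Treatment was monthly for 6 months in all 3 groups. The medium came from stimulated co-cultures, whereas the injected cells had no such step named. No group of animals received unconditioned medium or medium of macrophages alone among the samples analysed here, so what the ABCB5+ cells and the macrophages each contributed to the medium cannot be told apart. The 6 control animals (Ctrl) were not part of the contrast, and their values are given as background. Numbers of the treated animals interleaved between 26 and 43, while those of Ctrl lay between 1 and 24.

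ABCB5+ cells are stromal cells of the skin that carry the transporter ABCB5 and are known for secreting factors that act on immune cells and vessels. Conditioned medium holds such secreted proteins and vesicles without the cells. In cystic kidneys, tubules widen into fluid-filled sacs, with altered cAMP and calcium signalling, activity of mTOR and Wnt pathways, inflammation and deposition of matrix.

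The 24 libraries held between 9304630 and 14125457 estimated counts. Animals 36, 37, 38 and 39 stood apart from the rest on the first principal component, which held 56.3% of the variance, with scores from 80.8 to 97.4 against −53.0 to 11.5. They belonged to i.v. ABCB5+ (36 and 37), i.p. ABCB5+ (38) and CoCM (39). In those 4 kidneys Spp1, a marker of injured tubules, was between 370.1 and 669.5 CPM (counts relative to library size), against at least 6596 CPM in every other animal. The main counts of genes below are therefore also given without them. What set these animals apart was not tested.

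Of 12778 genes tested, 0 differed between CoCM and the cells after adjustment (0%, edgeR quasi-likelihood test, Benjamini-Hochberg, smallest adjusted p = 0.168). Before adjustment, 410 genes with a higher level in CoCM (3.21%) and 484 with a lower level (3.79%) had p-values under 0.05. Against i.p. ABCB5+ alone these numbers were 279 (2.18%) and 243 (1.9%), with a smallest adjusted p of 0.589 in edgeR. Against i.v. ABCB5+ alone they were 360 (2.82%) and 514 (4.02%), with a smallest adjusted p of 0.698 in edgeR. The pairwise comparisons share the CoCM animals. Without animals 36 to 39, 12884 genes were tested, 0 passed adjustment (smallest adjusted p = 0.332 in edgeR), and 637 (4.94%) and 1156 (8.97%) had unadjusted p-values under 0.05. The numbers without these animals were 390 (3.03%) and 703 (5.46%) against i.p. ABCB5+ and 486 (3.77%) and 907 (7.04%) against i.v. ABCB5+, with 0 past adjustment (smallest adjusted p = 0.425 and 0.457 in edgeR).

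The exact permutation test over the 18564 ways to divide 18 animals into 6 and 12 gave 888 genes with an unadjusted two-sided p under 0.05 and 0 after adjustment (smallest adjusted p = 0.344). DESeq2 called 3 genes and limma voom with sample quality weights called 2, all higher in CoCM. They were Ovca2 and a gene without a symbol in the table used (Entrez 100362172) in both, and Tmem269 in DESeq2. Over all genes the SE of the log2 fold change had a median of 0.149, and 33 genes had a log2 fold change larger than 1 in size, 17 higher and 16 lower. Leaving out 1 animal moved the number of genes with unadjusted p under 0.05 from 894 to between 447 (without CoCM animal 27) and 1702 (without CoCM animal 39), with 455 without CoCM animal 26, while 0 genes passed adjustment in each of these fits.

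The promoters of 3 of the 12 genes with the smallest p-values among those higher in CoCM are shown first. They were chosen, after inspection of the sequences, because they share the letters CCGGAAG (or the reverse complement CTTCCGG) shortly before the start of transcription. RefSeq promoter windows of assembly GRCr8, from 250 bases before to 50 after the start, are given 5′ to 3′ on the gene's strand, with each match in capitals.
Ovca2, chr10:60527498-60527797 (- strand): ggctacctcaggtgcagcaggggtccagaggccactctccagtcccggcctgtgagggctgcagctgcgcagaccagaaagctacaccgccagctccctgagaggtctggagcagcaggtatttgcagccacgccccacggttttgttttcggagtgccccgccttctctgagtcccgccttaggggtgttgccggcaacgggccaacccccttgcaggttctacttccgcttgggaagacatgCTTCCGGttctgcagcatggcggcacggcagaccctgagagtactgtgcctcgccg
Dalrd3, chr8:118143956-118144255 (+ strand): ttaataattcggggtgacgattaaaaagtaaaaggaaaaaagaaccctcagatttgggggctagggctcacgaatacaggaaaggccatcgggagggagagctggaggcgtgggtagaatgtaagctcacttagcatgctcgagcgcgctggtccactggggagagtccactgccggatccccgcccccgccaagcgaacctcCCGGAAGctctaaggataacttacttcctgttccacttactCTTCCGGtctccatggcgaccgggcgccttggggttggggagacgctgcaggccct
Pcid2, chr16:83125136-83125435 (+ strand): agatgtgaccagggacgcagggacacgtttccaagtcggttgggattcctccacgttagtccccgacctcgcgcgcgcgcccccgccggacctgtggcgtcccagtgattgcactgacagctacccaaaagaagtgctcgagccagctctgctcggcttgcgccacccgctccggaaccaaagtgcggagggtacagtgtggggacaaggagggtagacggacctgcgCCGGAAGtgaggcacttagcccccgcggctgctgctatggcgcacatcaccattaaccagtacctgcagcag
A match on either strand was present in 3 of 11 windows found for the 12 higher genes, in 1 of 9 found for the 12 lower genes (Polg), in 16.3% of the 10816 windows of genes tested and in 8.75% of all 33469 windows. The match in Ovca2 began 6 bases before the start, those in Dalrd3 47 and 6 bases before it, and that in Pcid2 22 bases before it. These are matches of letters and do not show binding of a factor.

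The 12 genes with the smallest p-values among those with higher levels in CoCM against both routes included Ovca2, Tmem269, Vof16, Taf1d, Cryzl1, Ina, Klhl26, Dalrd3, Pcid2, Htr5b and Tipin. Their log2 fold changes lay between 0.19 and 0.84, and their adjusted p-values between 0.168 and 0.688 (edgeR). Taf1d is a subunit of the factor that starts transcription of ribosomal RNA, Pcid2 belongs to a complex for export of mRNA, Dalrd3 takes part in methylation of tRNA, and Tipin protects replication forks. Htr5b is a serotonin receptor, Ina an intermediate filament protein of neurons and Klhl26 an adaptor of ubiquitin ligases.

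Ovca2 (Entrez 497954), a serine hydrolase, had the smallest p-value. It was between 27.98 and 33.9 CPM in CoCM (median 31.1), between 18.6 and 26.04 in i.p. ABCB5+ (22.8) and between 20.1 and 24.9 in i.v. ABCB5+ (23.9). All 6 CoCM animals lay above all 12 animals given cells, and Ctrl was between 18.6 and 24.1 CPM. The log2 fold change was 0.42 ± 0.076 (SE), with an unadjusted p of 1.32e-05 and an adjusted p of 0.168 in edgeR. Against each route separately it was 0.45 (i.p.) and 0.40 (i.v.). The exact permutation p was 5.39e-05, the smallest these groups can give, and 0.344 after adjustment. In the GRCr8 annotation the start of Ovca2 lies within Dph1 on the same chromosome, so reads of the 2 genes may have been split and the count is uncertain.

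Taf1d was between 34.6 and 47.4 CPM in CoCM (median 37.9) and between 21.7 and 34.1 CPM in the 12 cell-treated animals (median 28.98). The groups did not overlap, although the highest cell-treated animals, at 34.1 CPM, came close to the lowest CoCM animal. The log2 fold change was 0.41 ± 0.098 (SE), with an adjusted p of 0.665 in edgeR. Ctrl animals had between 21.2 and 31.3 CPM.

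In Tmem269, a transmembrane protein, CoCM animals had between 16.98 and 24.03 CPM (median 22.1) and cell-treated animals between 10.6 and 19.1 (median 13.8). Of 6 CoCM animals, 5 lay above all cell-treated animals. The log2 fold change was 0.59 ± 0.13 (SE), with an adjusted p of 0.665 in edgeR. Vof16 had the largest fold change of the 12, at 0.84 ± 0.20 (SE), and was between 14.9 and 21.5 CPM in CoCM and between 5.88 and 17.04 CPM in the cell groups. Htr5b was between 13.6 and 19.97 CPM in CoCM, between 6.33 and 14.01 CPM in the cell groups and between 4.62 and 12.96 CPM in Ctrl. These last 2 genes overlapped between CoCM and cells at the edges of their ranges.

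Across all genes, 5 had all 6 CoCM animals above all 12 cell-treated animals (0.0391% of the genes tested) and 0 had all 6 below (0%). Beside Ovca2 and Taf1d these were Dynlt2b, a light chain of the dynein motor, CB741658, a long non-coding RNA, and Entrez 100362172. The last 3 were named after their values were seen. Dynlt2b was between 19.1 and 21.5 CPM in CoCM and between 12.9 and 18.6 CPM in the cell groups, but reached 20.9 CPM in Ctrl. CB741658 was low throughout, between 1.68 and 2.92 CPM in CoCM and between 0.968 and 1.58 CPM with cells.

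The 12 genes with the smallest p-values among those with lower levels in CoCM were Zfp362, Ric8b, Notch3, Fgf22, Pcdh12, Np4, Arhgef7, Polg, Snx9, Chst15, Fam217b and Bcorl1. Their log2 fold changes lay between −0.20 and −0.91, with adjusted p-values between 0.665 and 0.688 (edgeR). Notch3 and Pcdh12 are proteins of the vessel wall, the first a receptor of smooth muscle cells and pericytes and the second an adhesion molecule of endothelium. Ric8b is a chaperone of G protein subunits, Arhgef7 and Snx9 act on the cytoskeleton and in endocytosis, Polg copies mitochondrial DNA and Chst15 sulfates chondroitin.

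Notch3 was between 24.3 and 40.96 CPM in CoCM (median 35.5), between 41.3 and 63.6 in i.p. ABCB5+ (46.9), between 35.04 and 57.5 in i.v. ABCB5+ (44.1) and between 34.9 and 54.5 in Ctrl (44.3). CoCM and i.p. ABCB5+ did not overlap, whereas CoCM and i.v. ABCB5+ did. The log2 fold change against both routes was −0.48 ± 0.13 (SE), with an adjusted p of 0.688 in edgeR, and it was −0.32 with length offsets. Pcdh12 was between 3.27 and 10.3 CPM in CoCM (median 7.01) and between 7.33 and 16.3 CPM in cell-treated animals (median 10.9). Its log2 fold change was −0.72 ± 0.20 (SE), with an adjusted p of 0.688 in edgeR.

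Zfp362, a zinc finger protein, had the smallest p-value of the 12. It was between 30.1 and 37.6 CPM in CoCM (median 32.4) and between 33.9 and 44.03 CPM with cells (median 38.2), and 5 of 6 CoCM animals lay below every cell-treated animal. Chst15 had the largest fold change, at −0.91 ± 0.27 (SE). Its levels were between 2.05 and 3.51 CPM in 5 CoCM animals and 6.996 CPM in CoCM animal 40, and between 3.35 and 10.2 CPM with cells. For none of the 24 genes of both directions did i.p. and i.v. ABCB5+ differ after adjustment (smallest adjusted p = 0.9999 in edgeR).

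**Figure D1:**
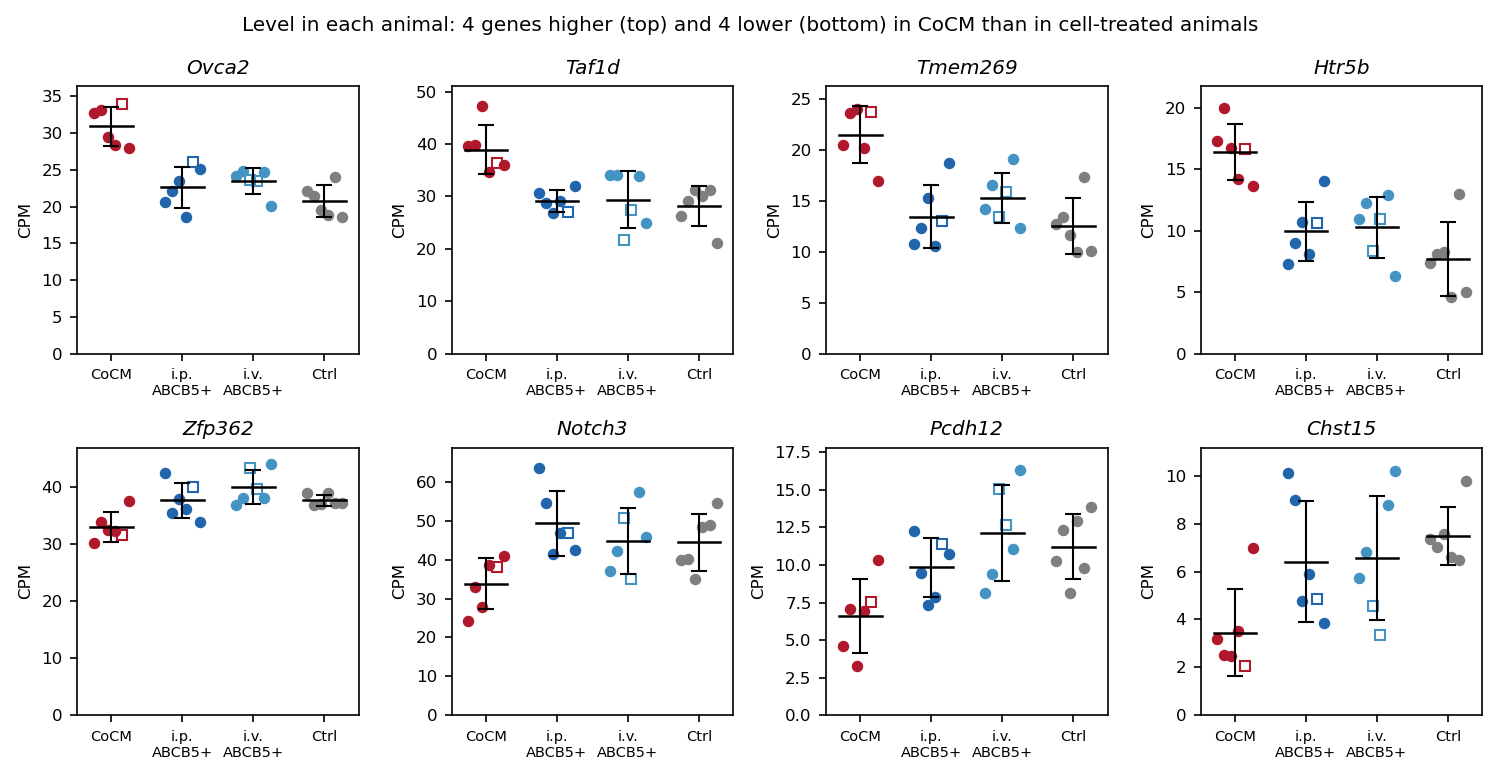
Level of 8 genes (y axis, CPM, starting at 0) in each animal of the 4 groups (x axis, n = 6 each). Bars show the mean ± SD and open squares mark animals 36 to 39. The CoCM animals lie above both cell groups for Ovca2 and Taf1d, while the groups overlap for the other 6 genes.

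The same animals were often at the edge of their group in these genes. Of the 12 higher genes, i.p. ABCB5+ animal 41 had the highest level of its group in 8, i.v. ABCB5+ animal 43 had the lowest of its group in 9, and CoCM animal 40 had the lowest of its group in 8. In the 12 lower genes the direction turned around. Animal 41 was the lowest of its group in 8, and animals 43 and 40 were each the highest of their group in 5.

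Differences between CoCM and cells varied with transcript length. When genes were split into 10 bins of equal size by the effective length that counts and TPM imply, the median log2 fold change was 0.09 in the shortest bin and −0.12 in the longest, and it was lower in each successive bin. Of the genes with unadjusted p under 0.05, 73 were higher and 21 lower in the shortest bin (1278 genes), against 14 higher and 150 lower in the longest (1278 genes). Spearman's rho of fold change with length was −0.31 across 12778 genes, which share libraries and are not independent replicates. The trend was present against i.p. ABCB5+ (0.07 to −0.11), against i.v. ABCB5+ (0.12 to −0.13) and without animals 36 to 39 (0.15 to −0.16).

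For each library, the slope of its centred log2 level on log2 length was taken. The slope was negative in all 6 CoCM libraries, between −0.101 and −0.0221. In the cell groups it was negative in 6 and positive in 6 of 12 libraries, between −0.0905 and 0.0999, and in Ctrl between −0.0583 and 0.106. CoCM and cells overlapped, and the difference between the means of −0.0450 and 0.00852 had a two-sided exact permutation p of 0.0833, or 0.417 after adjustment over 5 library measures. Without animals 36 to 39 the permutation p was 0.04995, or 0.25 adjusted. Animal 41 had the most negative slope of i.p. ABCB5+ (−0.0905), animal 43 the most positive of i.v. ABCB5+ (0.0750), and animal 40 the least negative of CoCM (−0.0221). CoCM animal 26 (slope −0.101) was the highest of its group in 1 of the 12 higher genes and i.v. ABCB5+ animal 37 (−0.0699) in 2. I.p. ABCB5+ animal 29 (0.0999) was the lowest of its group in 2 of them and the highest in 9 of the 12 lower genes. CoCM animal 35 (−0.0237) was the lowest of its group in 1 of the 12 higher genes, and i.v. ABCB5+ animal 42 (0.0688) was the highest in 6. The median length of the 12 higher genes was 1.015 times that of the median gene, and that of the 12 lower genes 0.917 times. Whether slope and position within the group were related was not tested.

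When the fit carried length as an offset, 527 genes had unadjusted p under 0.05 with a higher level in CoCM and 256 with a lower level, in place of 410 and 484, and 0 passed adjustment (smallest adjusted p = 0.583 in edgeR). With log2(TPM + 1) in limma the numbers were 173 and 337. The split between higher and lower genes thus differed between these fits. The TPM fit also differed from the main fit in scaling and test, so the part of length in its numbers cannot be told apart. The median log2 fold change over all genes was 0.02 with length offsets and −0.04 with log2(TPM + 1), beside −0.01 in the main fit. Whether the trend with length came from the RNA of the animals or from its preparation was not tested.

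**Figure D2:**
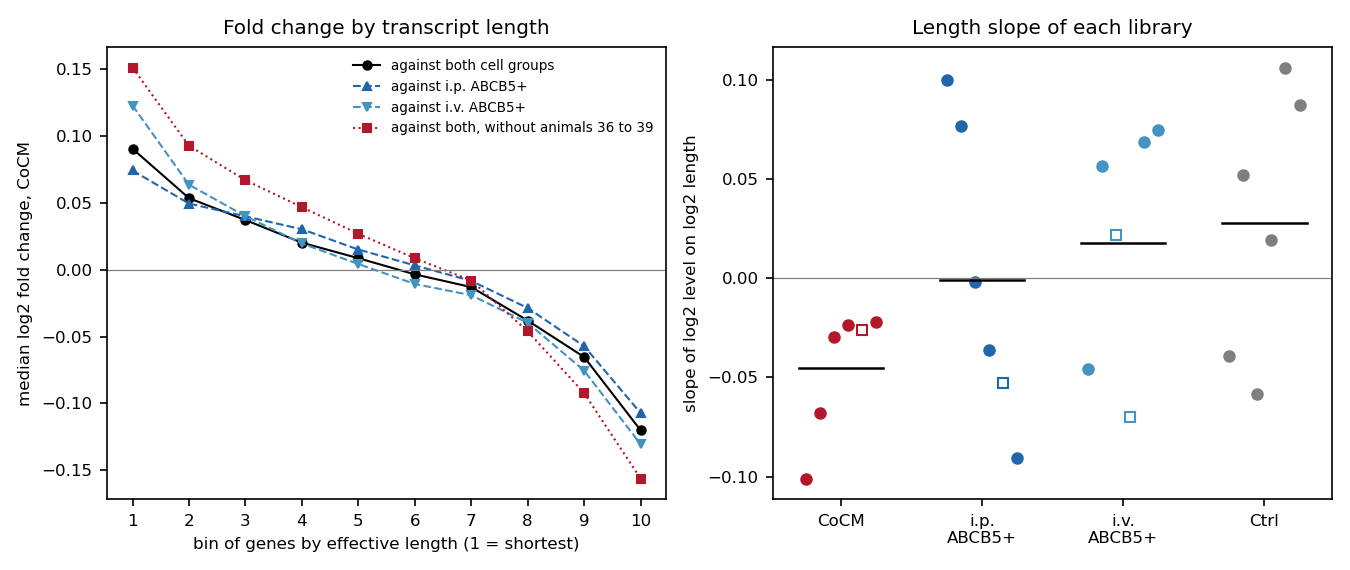
Left, median log2 fold change of CoCM (y axis) in 10 bins of genes by effective length (x axis, 1 = shortest), for 4 contrasts. Right, slope of log2 level on log2 length (y axis) in each library, with group means as lines and animals 36 to 39 as open squares. The medians lie between 0.09 and −0.12 against both cell groups, and all 6 CoCM slopes are below 0.

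Gene lists of the pathways and cell types of the cystic kidney were described by the number of members with unadjusted p under 0.05 and by the median log2 fold change, beside −0.01 for all genes. Over 52 lists, 0 members passed adjustment, 25 lists had no member with unadjusted p under 0.05, and the median was above 0 in 21 and below 0 in 31. In 9 lists the sign of the median was another without animals 36 to 39. With whole kidney RNA, fewer cells of a type and less RNA per cell cannot be told apart.

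Receptors for secreted factors were examined because medium and cells may both act through them. Of 51 tested, 7 were lower in CoCM at unadjusted p under 0.05 (13.7%, beside 3.79% of all genes) and 0 were higher, and the list median was −0.15. The 3 with the smallest p-values were Il1r1, the receptor of interleukin 1, Flt1, a VEGF receptor of endothelium, and Tgfbr2, which binds TGF-beta. Il1r1 was between 5.57 and 11.6 CPM in CoCM and between 5.94 and 21.4 CPM with cells (log2 fold change −0.67 ± 0.24, SE). Flt1 was between 59.7 and 102 CPM in CoCM and between 72.4 and 139 CPM with cells (−0.35 ± 0.13, SE). Tgfbr2 was between 36.8 and 80.7 CPM in CoCM and between 35.3 and 130 CPM with cells (−0.62 ± 0.24, SE). The groups overlapped in all 3 genes. Without animals 36 to 39, 15 of the 51 were lower (beside 8.97% of all genes) and 0 higher. The list median was −0.30 without CoCM animal 40 and −0.094 without i.v. ABCB5+ animal 43. The median member of this list was 1.63 times as long as the median gene. With length offsets the list median was −0.12, beside 0.02 for all genes.

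Pathways of growth and second messengers also had more members on the lower side, to be read beside 3.79% of all genes. In TGF-beta and BMP signalling, 6 of 46 (13%) were lower and 0 higher (median −0.13), led by Acvr1, Tgfbr2 and the ubiquitin ligase Smurf2. In cAMP and calcium signalling, 5 of 62 (8.06%) were lower and 0 higher (median −0.15), led by Gnaq, a G protein subunit, Itpr1, a calcium channel of the endoplasmic reticulum, and Akap11, an anchor of protein kinase A. Gnaq was between 5.05 and 9.19 CPM in CoCM and between 7.40 and 15.1 CPM with cells. In Wnt signalling, 4 of 52 (7.69%) were lower and 0 higher (median −0.10). Ctnnb1, which encodes beta-catenin, was between 204 and 291 CPM in CoCM and between 241 and 361 CPM with cells (log2 fold change −0.29 ± 0.10, SE). In the PI3K-Akt-mTOR core, 5 of 53 (9.43%) were lower, led by Rptor, a subunit of the mTORC1 complex, and 1 was higher, the S6 kinase Rps6kb2 (median −0.08). The groups overlapped in Gnaq and Ctnnb1. Leaving out CoCM animal 39 gave a TGF-beta and BMP median of −0.08, and leaving out CoCM animal 40 gave −0.17. The cAMP and calcium median was −0.10 without CoCM animal 26 and −0.17 without i.p. ABCB5+ animal 41. The Wnt median was −0.18 without CoCM animal 40 and −0.09 without CoCM animal 26. The PI3K-Akt-mTOR median was −0.12 without CoCM animal 39 and −0.06 without CoCM animal 35.

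These 4 lists were made of longer than median genes as well, with median relative lengths of 1.32, 1.54, 1.33 and 1.13. With length offsets their medians were −0.07, −0.08, −0.04 and −0.05, beside 0.02 for all genes. Without animals 36 to 39, the lower members numbered 13 of 46, 18 of 62, 12 of 52 and 16 of 53, beside 8.97% of all genes. With length offsets and without these animals the medians were −0.05, −0.08, −0.03 and −0.003, beside 0.05 for all genes. Of the genes named from these lists, Itpr1, Akap11, Rptor and Smurf2 had log2 fold changes of −0.13, −0.13, −0.13 and −0.05 with length offsets. Without offsets they were −0.30, −0.28, −0.26 and −0.17. Acvr1, Tgfbr2, Gnaq and Ctnnb1 had −0.34, −0.60, −0.55 and −0.27 with offsets, in place of −0.34, −0.62, −0.52 and −0.29. The part of length in these counts and fold changes was not tested.

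Cytosolic ribosomal proteins were the opposite case. Of 76 tested, 8 were higher in CoCM (10.5%, beside 3.21% of all genes) and 0 lower, and 74 had a fold change above 0 (median 0.24). Against i.v. ABCB5+ alone 21 were higher (beside 2.82% of all genes), and against i.p. ABCB5+ 0 were (beside 2.18%). Rps10 was between 131 and 220 CPM in CoCM and between 122 and 183 CPM with cells (log2 fold change 0.30 ± 0.11, SE), so the groups overlapped. These genes are the shortest of the lists, with a median relative length of 0.18, and have many processed copies in the genome, so their counts are uncertain. The median was 0.12 with length offsets, beside 0.02 for all genes. Without animals 36 to 39 it was 0.24, and 25 were higher (beside 4.94%). It was between 0.14 and 0.34 in the fits leaving out 1 animal. In the proteasome 3 of 47 were higher (6.38%, beside 3.21%) and 0 lower (median 0.06). Without animals 36 to 39, 9 were higher (beside 4.94%). The proteasome median was 0.05 without i.p. ABCB5+ animal 29 and 0.11 without i.v. ABCB5+ animal 37. The list was led by Psma3, a subunit of the core particle, which was between 70.3 and 97.4 CPM in CoCM and between 59.5 and 81.7 CPM with cells (log2 fold change 0.30 ± 0.083, SE).

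The co-cultures behind the medium had been stimulated with IFN-γ and LPS, and targets of both were therefore examined. With all animals, the counts of these lists are to be read beside 3.21% higher and 3.79% lower of all genes. Among interferon-stimulated genes 0 of 49 had an unadjusted p under 0.05 (median 0.12). In MHC and antigen presentation 1 of 29 was higher, Psme1, a proteasome activator induced by interferon (median 0.11). In the NF-kappa B, TNF and Toll-like response 1 of 53 was lower, Traf3 (median 0.02), and in complement and acute phase 1 of 35 was higher, Cfd (median 0.06). The difference in Cfd rested on CoCM animal 34, with a log2 fold change of 1.83, and of 0.37 without that animal. Without animals 36 to 39, 4 interferon-stimulated genes were higher and 1 lower, 1 and 1 in MHC and antigen presentation, 1 and 5 in the NF-kappa B list and 1 and 0 in complement, beside 4.94% and 8.97% of all genes. Medians of these lists moved with single CoCM animals. They were 0.28, 0.29, 0.15 and 0.28 without animal 39, and the last 3 were −0.02, −0.04 and −0.06 without animal 40.

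The next counts, with all animals, are also to be read beside 3.21% higher and 3.79% lower of all genes. Tubular injury genes had a median of 0.16 with 0 of 33 at unadjusted p under 0.05. Cell cycle and mitosis had a median of 0.16 with 1 of 45 lower and 0 higher. Leaving out CoCM animal 39 gave medians of 0.33 and 0.30, while the first was 0.06 without CoCM animal 40 and the second 0.04 without CoCM animal 26. Genes of cystic disease and the inversin compartment, to which Anks6 belongs, had 0 of 26 (median −0.04). With length offsets this median was 0.04, beside 0.02 for all genes. Matrix and fibroblast genes had 1 of 46 lower, Vcan (median −0.03), and this median was −0.34 without CoCM animal 40 and 0.12 without CoCM animal 39. In oxidative phosphorylation 0 of 73 passed (median 0.01, and 0.15 without animals 36 to 39). Without these 4 animals, 0 tubular injury genes, 3 higher and 3 lower cell cycle genes, 1 higher and 2 lower cystic disease genes, 4 lower matrix genes and 1 higher oxidative phosphorylation gene had unadjusted p under 0.05, beside 4.94% and 8.97% of all genes.

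**Figure D3:**
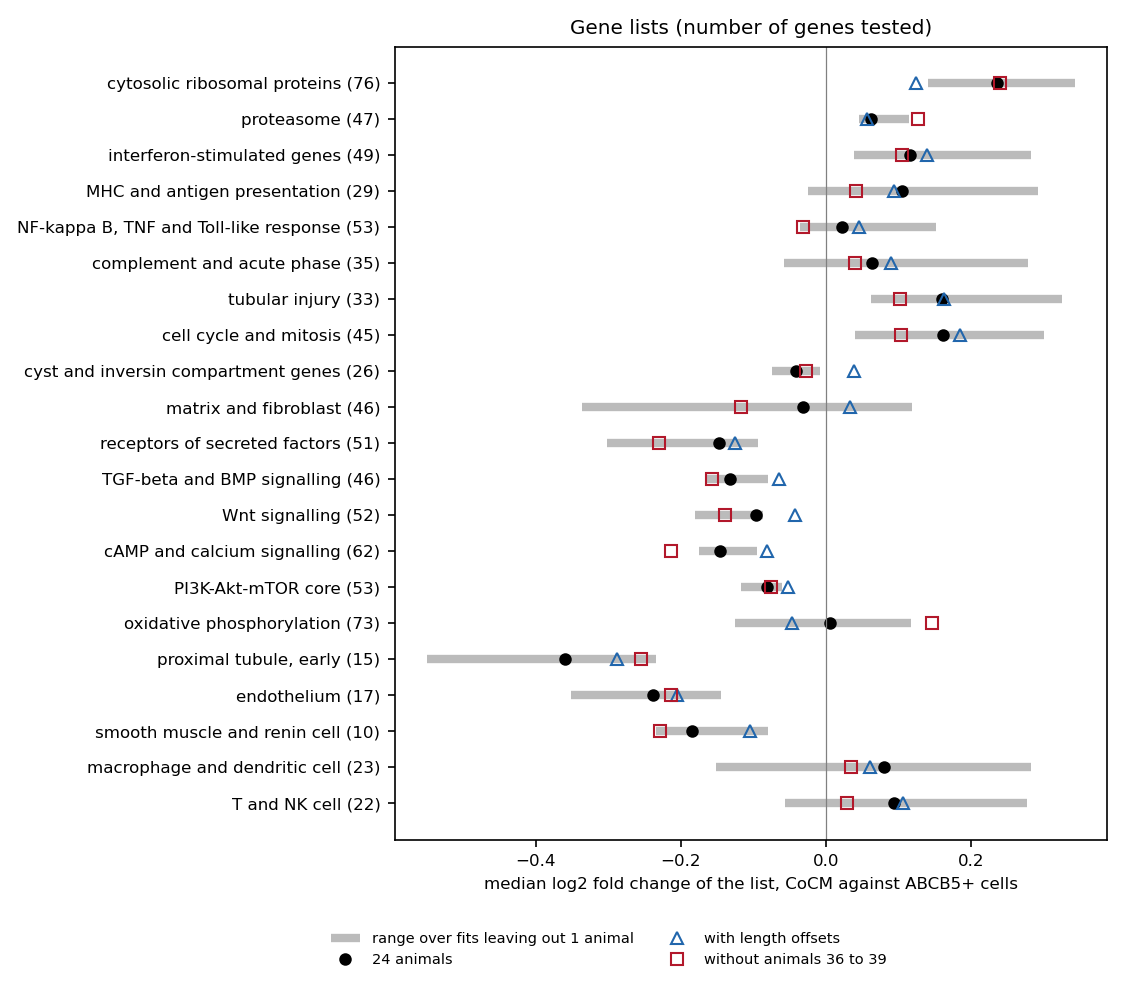
Median log2 fold change of CoCM against ABCB5+ cells (x axis) for 21 gene lists (y axis, number of genes tested in parentheses). Black points use 24 animals, triangles length offsets and squares the fit without animals 36 to 39, and grey bars span the fits that left out 1 animal. Cytosolic ribosomal proteins lie at 0.24 and early proximal tubule at −0.36.

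Among cell type markers, those of the early proximal tubule, the segment that reabsorbs most glucose and amino acids, had the lowest median of the tubule segments, −0.36, with 3 of 15 lower (20%, beside 3.79% of all genes) and 0 higher. It was −0.62 against i.v. and −0.10 against i.p. ABCB5+, a difference that was not tested for the list. Slc6a19, a transporter of neutral amino acids, was between 6.57 and 23.98 CPM in CoCM (median 15.1), between 15.5 and 47.6 in i.p. ABCB5+ (22.2) and between 8.97 and 79.4 in i.v. ABCB5+ (34.5). The groups overlapped (log2 fold change −1.07 ± 0.41, SE). Slc5a12 and Slc4a4, transporters of lactate and bicarbonate, had log2 fold changes of −0.78 and −0.87. Summed over the 15 markers, the level was between 3959 and 10785 CPM in CoCM. It was between 3991 and 9160 CPM in i.p. ABCB5+ and between 3806 and 15331 CPM in i.v. ABCB5+. The list median was −0.55 without CoCM animal 39 and −0.23 without i.v. ABCB5+ animal 37, and 2 of 15 were lower without animals 36 to 39 (beside 8.97%).

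Endothelial markers had a median of −0.24 with 3 of 17 lower (17.6%, beside 3.79% of all genes) and 0 higher, namely Flt1, Cdh5 and Esam. This median was −0.35 without CoCM animal 40 and −0.14 without CoCM animal 34, and 5 were lower without animals 36 to 39 (beside 8.97%). Cdh5, the cadherin of endothelial junctions, was between 15.2 and 35.4 CPM in CoCM and between 16.2 and 48.2 CPM with cells, and the groups overlapped. The summed endothelial level was between 932 and 1714 CPM in CoCM, 1265 and 1677 in i.p. ABCB5+ and 1380 and 1725 in i.v. ABCB5+. Markers of smooth muscle and renin cells had 2 of 10 lower (20%), Notch3 and Rgs5, and 2 without animals 36 to 39. Of the 10, 3 had a fold change above 0. The list median was −0.18, with −0.30 against i.p. and −0.04 against i.v. ABCB5+. It was −0.08 without i.p. ABCB5+ animal 41 and −0.23 without i.p. ABCB5+ animal 30. The summed level of these markers was between 633 and 1873 CPM in CoCM, 803 and 1644 in i.p. ABCB5+ and 640 and 1165 in i.v. ABCB5+. Rgs5, a regulator of G protein signalling in pericytes, was between 10.7 and 33.5 CPM in CoCM (median 20.4), between 29.9 and 44.1 in i.p. ABCB5+ (35.4) and between 15.2 and 36.2 in i.v. ABCB5+ (26.4). Its log2 fold change was −0.58 ± 0.20 (SE), with −0.82 against i.p. and −0.33 against i.v. ABCB5+. Macrophage and T cell lists had 0 of 23 and 0 of 22 at unadjusted p under 0.05, with medians of 0.08 and 0.09. These were −0.15 and −0.06 without CoCM animal 40, and both 0.28 without CoCM animal 39.

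Fat and blood markers had the highest medians. The left kidneys of the study were frozen before perfusion, and any part of this in the levels was not tested. Of the adipocyte list, 3 of 7 were higher at unadjusted p under 0.05 (42.9%, beside 3.21% of all genes) and 0 lower. Fabp4, a fatty acid carrier, was 208 CPM in CoCM animal 34, between 0.455 and 11.15 CPM in the other 5 CoCM animals, and between 1.21 and 20.04 CPM with cells. Cfd was 92.8 CPM in animal 34 and at most 14.3 CPM in the other CoCM animals, and Adipoq, the hormone adiponectin, was 136 CPM in animal 34 and at most 22.25 CPM in the others. The log2 fold changes of Fabp4 and Adipoq were 2.36 and 0.93 with this animal and −0.29 and −0.03 without it. The summed adipocyte level was at most 964 CPM in CoCM and at most 378 CPM in the cell groups. Red blood cell markers had a median of 0.91 with 0 of 9 at unadjusted p under 0.05. Their sum was between 598 and 3508 CPM in CoCM, between 391 and 1772 CPM with cells and between 338 and 10648 CPM in Ctrl. That median was 0.25 without animal 34.

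**Figure D4:**
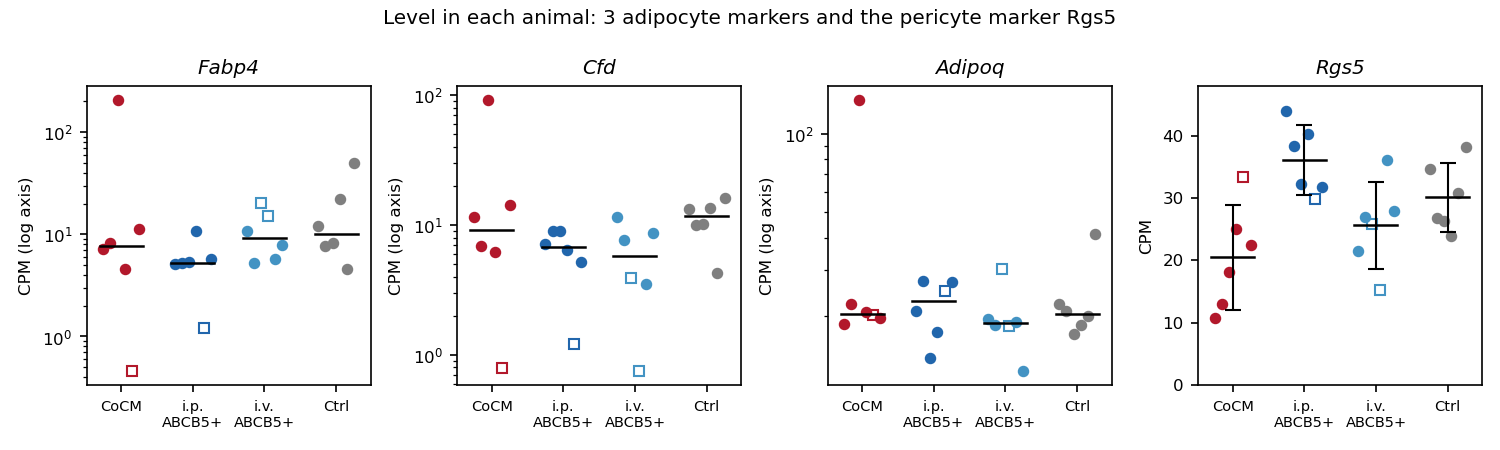
Level of Fabp4, Cfd and Adipoq (log y axes) and Rgs5 (linear y axis from 0), in CPM, in each animal of the 4 groups (x axis, n = 6 each). Lines are medians on the log axes and the mean ± SD for Rgs5, and open squares mark animals 36 to 39. CoCM animal 34 stands alone at 208, 92.8 and 136 CPM in the 3 fat genes.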

How the data were processed

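Left kidney RNA of 24 rats was sequenced on a BGI platform, with 6 animals per group, and groups were taken from the sample labels. For each animal the authors deposited estimated counts, not normalized, for 17334 Entrez genes. The authors also deposited TPM values, scaled to transcript length and library total. The submitters' processing notes name Trim Galore 0.6.4, kallisto 0.4.6 and the build rn6, and the study's methods name DESeq2 and a package of human hg19 gene models. Symbols (17179 found) and promoters came from RefSeq tables of GRCr8, from which no coordinates other than those of the promoters and the Ovca2 overlap were used.

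Estimated counts were rounded, filtered with filterByExpr and scaled by TMM. All 24 samples entered 1 quasi-likelihood model with 4 group means (edgeR 4.0.16 under R 4.3.3). P-values were adjusted by Benjamini-Hochberg at 0.05. The contrast was CoCM minus the average of both cell groups. CPM values carry the TMM scaling, and log2 CPM used a prior count of 2. DESeq2 1.42.0, limma 3.58.1 and sva 3.50.0 served the alternatives, which also covered other scalings, filters, thinning, length offsets, animal number and leaving out each animal. The fits without animals 36 to 39 were chosen after seeing the data. The code was tested on simulated data.

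Relative length was the ratio of count to TPM divided by its median over genes. Animals were separate samples, since replicates differed by a chi-square of at least 10.4 per degree of freedom. Intervals from counts would cover counting error only, and 3 counts equal 0.322 CPM in the smallest treated library. Named genes needed a symbol, the same sign against both routes and a mean log2 CPM of more than 1. Those with the smallest p were taken, 12 in each direction and at most 3 in each list. A few of the genes so chosen are not reported here. The comparison and the lists were chosen with earlier results of these data known.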

Additional observations from a re-analysis of the deposited data

Results flagged for a closer look

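Within groups of 6 animals, a value was singled out when its gap to the nearest animal took up most of the range of its group (Dixon's test, 95% level). Chance singles out about 1 in 20 groups, or 6 of the 120 pairs of a measure and a group examined, and 12 were found. The causes were not tested.

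CoCM animal 34 accounted for 3 of them, with Fabp4 at 208 CPM (others 0.455 to 11.15), Cfd at 92.8 (0.797 to 14.3) and Adipoq at 136 (18.5 to 22.25). CoCM animal 39 had 13630 genes with a count (others 13960 to 14110) and a score of 97.4 on the first component (others −45.1 to 7.55), and i.p. ABCB5+ animal 38 had a score of 80.8 (others −36.1 to 3.31).

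Of the named genes, Ovca2 was 20.1 CPM in i.v. ABCB5+ animal 43 (others 23.5 to 24.9), Pcid2 was 52.5 CPM in i.p. ABCB5+ animal 41 (others 36.5 to 42.2) and Chst15 was 6.996 CPM in CoCM animal 40 (others 2.05 to 3.51). In Ctrl, animal 24 had Chst15 at 9.79 CPM (others 6.48 to 7.57) and Adipoq at 41.3 CPM (others 17.0 to 22.2), and animal 23 had a total of 10410000 counts (others 13320000 to 14130000).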

How the results depend on the processing

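The number of genes called was 0 in all fits except DESeq2 (3 against the cells, 1 against i.p. ABCB5+, Ovca2) and limma voom with quality weights (2 against the cells). It was 0 in each fit that left out 1 animal. The 5 genes without overlap became 2, 1 above and 1 below, with log2(TPM + 1). Of the list medians, 669 values stayed within 1 SD between animals and 6 did not. In most lists this SD was larger than the median itself, as in matrix and fibroblast genes (SD 0.82, median −0.03). A median could therefore change sign and still count as staying, so the 669 do not show that the medians were stable. The 6 included cyst and inversin compartment genes, cholesterol synthesis and aquaporins in the fit without animals 36 to 39 and with length offsets. Their medians there were 0.083, 0.059 and 0.036, beside 0.05 for all genes. The median of the adipocyte list was 1.38 without a count filter, when further members entered. It was 1.02 without animals 36 to 39 and 1.02 with length offsets in addition. Fold changes turned in Slc22a13 (0.14 with voom, 0.28 without animals 36 to 39, 0.30 with length offsets in addition) and Aqp1 (0.036 in the last of these fits). Over the fits leaving out 1 animal, Fabp4 ranged from −0.29 to 2.6 and Adipoq from −0.032 to 1.1, the lowest without CoCM animal 34. With at least 10 counts in every sample the urothelium list and 8 of the 100 named genes gave no value. Other causes were not tested. No paired analysis was possible because no animal number occurred in more than 1 group.

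Leaving out 1 animal moved other counts by more than 1.5 times. The 484 lower genes became 184, 243 and 957 without CoCM animals 26, 27 and 39, 827 without animal 41, 814 without animal 28 and 308 without animal 43, and the 410 higher genes became 271, 204 and 745 without the first 3. Counts against i.p. ABCB5+ ranged from 290 to 976 and against i.v. ABCB5+ from 454 to 1747.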

Other observations

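Lists of proximal tubule metabolism had medians near 0 against i.p. ABCB5+ and lower medians against i.v. ABCB5+, with 0 members past adjustment in edgeR. For amino acid catabolism (52 genes tested) the median log2 fold change of CoCM was 0.02 against i.p. and −0.37 against i.v. ABCB5+. For transporters of organic anions, cations and amino acids (45 genes) it was −0.003 and −0.43, for fatty acid oxidation and PPAR targets (60 genes) −0.01 and −0.24, and for the peroxisome (56 genes) 0.03 and −0.23. Members with unadjusted p under 0.05 against both routes together are to be read beside 3.21% higher and 3.79% lower of all genes. They were 0 of 52 in the first list, and 1 higher (2.22%) and 3 lower (6.67%) of 45 in the second. In the third list 1 of 60 was higher and 1 lower (1.67% each), and in the last 1 of 56 was higher (1.79%). I.v. ABCB5+ held animals 36 and 37, which stood apart from most others, and i.p. ABCB5+ held 1 such animal. Without animals 36 to 39 the medians against both routes were 0.02, 0.01, −0.02 and 0.02, in place of −0.15, −0.20, −0.12 and −0.08. The difference between routes was not tested for these lists.

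In the hypoxia list, Car9, a carbonic anhydrase of the cell surface, had a log2 fold change of 0.85 ± 0.26 (SE), with a mean of 3.98 CPM in CoCM against 2.35 with i.p. cells and 2.08 with i.v. cells, whereas Epas1 and Arnt, which form a hypoxia-inducible factor, had fold changes of −0.50 and −0.34. Against the background of 3.21% and 3.79% of all genes, 1 of 29 was higher and 2 lower. Clock, a transcription factor of the circadian rhythm, had a mean of 68.5 CPM in CoCM against 78.8 with i.p. cells, 87.3 with i.v. cells and 85.0 in Ctrl (log2 fold change −0.28 ± 0.096, SE). Its effective length was 4.73 times that of the median gene, and the log2 fold change was −0.12 with length offsets. The circadian list as a whole had 1 of 19 lower (5.26%, beside 3.79% of all genes).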
